A study of Homo sapiens with 6 samples.

Results

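HOXA5, HOXA7, HOXA9, HOXA10, MEIS1, PBX3, MYB, KMT2A, MEN1 and LMO2 are genes of a transcription program known from KMT2A-driven acute leukaemia. These 10 genes were chosen by name, from what is known of the program, out of 35052 genes with summed estimated reads. Earlier results of these data were known when they were chosen. All 10 were among the 12954 genes that passed the filter on low counts. The cells were EoL-1, a human cell line established from a patient's eosinophilic leukaemia and grown in culture. The labels give its cell type as eosinophil, and the line is known to carry a FIP1L1-PDGFRA fusion and a partial tandem duplication within KMT2A. PolyA RNA was sequenced from 3 libraries labelled ATF3/JUN double knockout and 3 labelled JUN knockout. The protocol on every sample names CRISPR/Cas9 for ATF3 and does not say how JUN was edited. By the labels JUN was targeted in all 6 libraries, and the comparison asked what targeting ATF3 as well added. The effect of losing JUN was outside its reach, since no unedited cells were analysed here. The labels number the libraries of each group 1 to 3. In the file names, libraries with the same number carry a shared code in both genotypes, read here as that of a JUN knockout clone, which the labels do not state. Nothing says that libraries of a group were separate cultures beyond that code, so p-values measure the spread between these libraries.

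KMT2A is a histone methyltransferase that places methyl groups on lysine 4 of histone H3, and its CXXC domain binds CpG dinucleotides that carry no methylation. Menin, the product of MEN1, tethers the KMT2A complex to chromatin. In normal blood formation the complex keeps HOXA genes and MEIS1 on in stem and progenitor cells, and these genes are shut down as the cells mature. HOXA9, MEIS1 and PBX3 are homeodomain proteins that bind DNA together. In KMT2A-driven leukaemia the program stays on, and MYB and LMO2, transcriptional regulators of blood progenitors, are expressed with it. JUN and ATF3 belong to the basic leucine zipper transcription factors, which as pairs bind AP-1 sites (TGANTCA) and CRE sites (TGACGTCA).

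The stretches below show the 250 bases upstream of the RefSeq start of MYB, HOXA9 and MEIS1, read 5′ to 3′ on the strand of the gene in GRCh38.p14. They were picked as the most abundant gene of the program, its most abundant HOXA gene and its least abundant gene. Capitals mark CpG, the dinucleotide that the CXXC domain reads. The MYB piece lies at chr6:135181058-135181307 on the plus strand, just before the annotated gene. The HOXA9 piece lies at chr7:27165538-27165787 on the minus strand and the MEIS1 piece at chr2:66434875-66435124 on the plus strand, each within the annotated gene but in no annotated exon.
MYB: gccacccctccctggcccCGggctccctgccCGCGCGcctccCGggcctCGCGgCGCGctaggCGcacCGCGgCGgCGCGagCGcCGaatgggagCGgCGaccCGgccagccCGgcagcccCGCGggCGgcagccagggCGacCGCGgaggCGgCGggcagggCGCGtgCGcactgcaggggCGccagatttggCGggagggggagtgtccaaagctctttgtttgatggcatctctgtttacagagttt
HOXA9: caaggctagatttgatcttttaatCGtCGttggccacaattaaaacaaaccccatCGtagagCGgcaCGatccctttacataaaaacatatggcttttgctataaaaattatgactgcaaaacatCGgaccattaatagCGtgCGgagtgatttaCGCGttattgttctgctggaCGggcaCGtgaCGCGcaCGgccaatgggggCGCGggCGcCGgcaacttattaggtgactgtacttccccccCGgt
MEIS1: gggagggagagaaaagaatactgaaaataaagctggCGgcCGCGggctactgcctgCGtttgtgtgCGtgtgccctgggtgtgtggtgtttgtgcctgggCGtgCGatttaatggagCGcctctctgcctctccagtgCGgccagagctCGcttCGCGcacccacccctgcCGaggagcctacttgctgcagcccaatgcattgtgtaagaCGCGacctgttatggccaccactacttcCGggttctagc
The MYB piece held 34 CpG, the HOXA9 piece 20 and the MEIS1 piece 16, against a median of 11 over 35116 such windows. RefSeq windows were matched for 8 of the 10 genes, all but HOXA5 and LMO2. Neither the AP-1 letters TGANTCA nor the CRE letters TGACGTCA were found on either strand of those windows, which reach from 250 bases before to 50 bases after the start. The AP-1 letters were present in 7.71% and the CRE letters in 1.85% of all 35116 windows. The absence of a match describes these windows alone.

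The libraries held 26146998 to 29567970 estimated reads in the double knockout and 27344031 to 29032697 in the JUN knockout. ATF3 was at 13.1, 10.0 and 7.63 CPM (estimated counts scaled to a common library total) in double knockout replicates 1 to 3, against 20.2, 13.7 and 8.89 CPM in JUN knockout replicates 1 to 3. The double knockout was lower within each of the 3 pairs, but the groups overlapped. The log2 fold change was −0.48 (SE 0.32, adjusted p = 0.931, edgeR). JUN was at 13.8, 16.6 and 25.7 CPM in the double knockout and 13.2, 27.2 and 24.6 CPM in the JUN knockout. The sources used here give neither guides nor alleles, and an edit that breaks a reading frame need not lower the mRNA, so these values do not check the labels. Defining eosinophil genes were nearly absent: EPX, PRG3, CLC and IL5RA had 0 reads in all 6 libraries, and 7 of 9 eosinophil markers stayed under 1 CPM. RNASE2, an eosinophil ribonuclease also made by other myeloid cells, was the exception with RNASE3, at 30.2 to 95.8 CPM. Of the progenitor markers, FLT3 was at 164 to 291 CPM while CD34 was at 0.827 to 1.56 CPM, and the other 3 of 5 stayed under 1 CPM. Erythroid markers summed to at most 0.269 CPM, neutrophil markers to 62.4 to 117 CPM and lymphoid markers, mostly NCAM1, to 24.7 to 79.9 CPM. The neutrophil sum came almost wholly from MPO and CSF3R, with ELANE and LTF at 0. In the neutrophil and the lymphoid list, 3 of 5 markers each stayed under 1 CPM.

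The program was expressed in every library, with levels that differed widely between its genes. Levels between genes are given per length, as TPM (abundance scaled for transcript length and library size) summed over transcripts of at least 500 bases and averaged over all 6 libraries. MYB, the transcription factor required for blood progenitors, was highest at 152 TPM, with 134 to 166 TPM over the 6 libraries. LMO2, an adaptor that bridges TAL1 or LYL1 to GATA factors on DNA, followed at 98.3 TPM. HOXA9 was next at 82.3 TPM, and its range of 69.1 to 98.9 TPM overlapped that of LMO2, 81.5 to 119 TPM. HOXA10 stood at 29.2 TPM and MEN1 at 21.0 TPM. PBX3, a partner that helps HOX proteins bind DNA, was at 12.2 TPM and KMT2A itself at 11.4 TPM. These neighbours could not be told apart, with 9.32 to 14.7 TPM for PBX3 and 9.29 to 14.8 TPM for KMT2A. HOXA7 at 7.37 TPM and HOXA5 at 5.68 TPM also had overlapping ranges. MEIS1 was last, at 0.839 TPM, with 0.402 to 1.66 TPM over the libraries. At each other step down this order the ranges did not overlap. The order rests on the cut at 500 bases, chosen after seeing the data. Over all transcripts HOXA5 averaged 13.8 TPM, above PBX3 at 12.7 TPM and KMT2A at 12.3 TPM. The ranges of HOXA10, 24.2 to 34.9 TPM, and MEN1, 20.6 to 27.2 TPM, then overlapped, as did those of KMT2A and HOXA7. By the percentile of TPM over all transcripts among tested genes, MYB stood at 95.3, LMO2 at 92.8, HOXA9 at 89.7 and MEIS1 at 18.3.

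MEIS1, the homeodomain cofactor that names the program, rested on 48 to 87 estimated reads per library. Its paralog MEIS2 was far more abundant, at 33.6 TPM. MEIS2 had 94.97, 94.31 and 93.03 CPM in the double knockout and 83.2, 81.7 and 81.2 CPM in the JUN knockout. All 3 double knockout libraries lay above all 3 JUN knockout libraries, a difference of 0.20 on the log2 scale (SE 0.07) that missed the threshold (adjusted p = 0.796, edgeR).

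**Figure D1:**
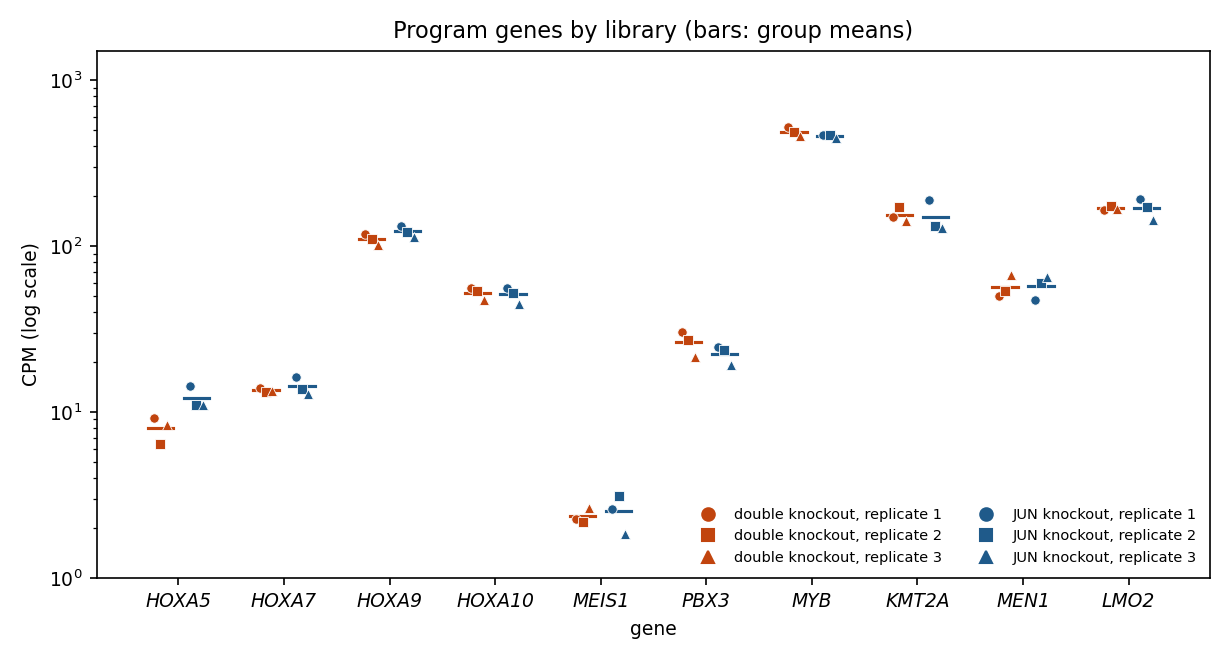
CPM of the 10 program genes in each library, on a log axis; orange symbols at the left of each gene are double knockout libraries, blue symbols at the right JUN knockout libraries, symbol shapes are replicate numbers and bars are group means. HOXA5 is the gene whose groups do not overlap, with 6.37 to 9.13 CPM in the double knockout and 10.97 to 14.3 CPM in the JUN knockout.

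Within the double knockout against the JUN knockout, none of the 10 genes passed the test. edgeR's quasi-likelihood test with Benjamini-Hochberg adjustment at 0.05 called 0 of 10, as it called 0 of 12954 genes in all (0.0%). At an unadjusted p under 0.05 it listed 1 of the 10 genes, HOXA5, beside 753 of 12954 genes (5.81%, of which 2.89% with the double knockout lower). With the replicate number as a block it also called 0 of the 10, and listed HOXA5 and PBX3 at an unadjusted p under 0.05, beside 9.79% of all tested genes. DESeq2 called 71 genes (0.548%) and limma-voom 4 genes (0.0309%), and each called 0 of the 10. HOXA5 was also the sole gene of the 10 whose groups did not overlap, where 12.3% of all tested genes did not (5.94% with the double knockout lower). The median log2 fold change of the 10 genes was −0.01, beside 0.0032 over all tested genes. The 95% intervals of the other 9 genes all lay between −0.70 and 0.62 on the log2 scale. A 2-fold difference, 1 on that scale, is outside each of those 9 intervals.

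The HOXA genes encode homeodomain transcription factors that hold myeloid progenitors in an immature, dividing state. HOXA5 (ENSG00000106004, chr7:27141052-27143668, minus strand) had 9.13, 6.37 and 8.38 CPM in the double knockout and 14.3, 11.01 and 10.97 CPM in the JUN knockout. Each double knockout library lay below each JUN knockout library. The means were 7.96 ± 1.43 CPM and 12.1 ± 1.91 CPM (SD, n = 3 each), and the log2 fold change was −0.60 (SE 0.19, 95% interval −1.05 to −0.16). The unadjusted p was 0.0146 and the adjusted p 0.789 in edgeR. An exact permutation test gave p = 0.1 (two-sided), the smallest that 3 against 3 libraries allow. With the replicate number as a block, the adjusted p was 0.287 in edgeR. HOXA5 lies within the annotated span of HOXA3 on the same strand, so reads of transcripts that share its exons were split by estimation.

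HOXA9 (ENSG00000078399, chr7:27162435-27175180, minus strand), the HOXA gene most closely tied to poor outcome in acute myeloid leukaemia, had 118, 110 and 101 CPM in the double knockout. It had 131, 122 and 114 CPM in the JUN knockout. Within each same-numbered pair the double knockout was lower, at −0.15, −0.15 and −0.17 on the log2 scale, yet the groups overlapped. The log2 fold change was −0.16 (SE 0.09, 95% interval −0.38 to 0.06, adjusted p = 0.919, edgeR). HOXA10 (ENSG00000253293, chr7:27170591-27180261, minus strand), its neighbour, had 55.8, 53.3 and 47.3 CPM in the double knockout. It had 56.1, 52.3 and 45.0 CPM in the JUN knockout. The groups coincided almost library by library, with a log2 fold change of 0.03 (SE 0.11). HOXA7 (ENSG00000122592, chr7:27153716-27157936, minus strand) had 13.9, 13.2 and 13.4 CPM in the double knockout and 16.2, 13.7 and 12.9 CPM in the JUN knockout. Its highest and lowest libraries were both JUN knockout, and the log2 fold change was −0.08 (SE 0.12).

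The cofactors and regulators showed no called difference either. MEIS1 (ENSG00000143995, chr2:66433452-66573869, plus strand) had 2.25, 2.16 and 2.65 CPM in the double knockout and 2.61, 3.13 and 1.85 CPM in the JUN knockout. The double knockout lay within the JUN knockout range, and the 95% interval of −0.70 to 0.49 on the log2 scale was the widest of the 10. PBX3 (ENSG00000167081, chr9:125747345-125967377, plus strand) had 30.4, 27.3 and 21.4 CPM in the double knockout and 24.7, 23.6 and 19.1 CPM in the JUN knockout. It was higher in the double knockout in 3 of 3 pairs while the groups overlapped, at a log2 fold change of 0.23 (SE 0.16, adjusted p = 0.936, edgeR). With an offset for transcript length, or with TPM over all transcripts, the estimate was −0.051, so its direction rests on the measure. MYB (ENSG00000118513, chr6:135181315-135219173, plus strand) had 519, 489 and 457 CPM in the double knockout and 467, 464 and 450 CPM in the JUN knockout. The double knockout was again higher in 3 of 3 pairs, by 0.08 on the log2 scale in the fit (SE 0.08). In all, 4 of the 10 genes (HOXA5, HOXA9, PBX3 and MYB) moved the same way in 3 of 3 pairs, beside 33.2% of all tested genes.

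KMT2A (ENSG00000118058, chr11:118436464-118526832, plus strand) had 149, 171 and 140 CPM in the double knockout and 189, 132 and 128 CPM in the JUN knockout. JUN knockout replicate 1 was the highest library and JUN knockout replicates 2 and 3 the lowest, so the double knockout lay inside that spread. The log2 fold change was 0.04 (SE 0.17). Values were per reference transcript, so the KMT2A duplication was not examined. MEN1 (ENSG00000133895, chr11:64803510-64811294, minus strand) had 49.9, 53.6 and 67.0 CPM in the double knockout and 47.3, 59.9 and 65.2 CPM in the JUN knockout. Both groups spanned nearly the same range, with a log2 fold change of −0.02 (SE 0.16). LMO2 (ENSG00000135363, chr11:33858576-33892289, minus strand) had 165, 174 and 167 CPM in the double knockout and 193, 173 and 144 CPM in the JUN knockout. The double knockout libraries sat within the wider JUN knockout range, at a log2 fold change of −0.01 (SE 0.12).

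**Figure D2:**
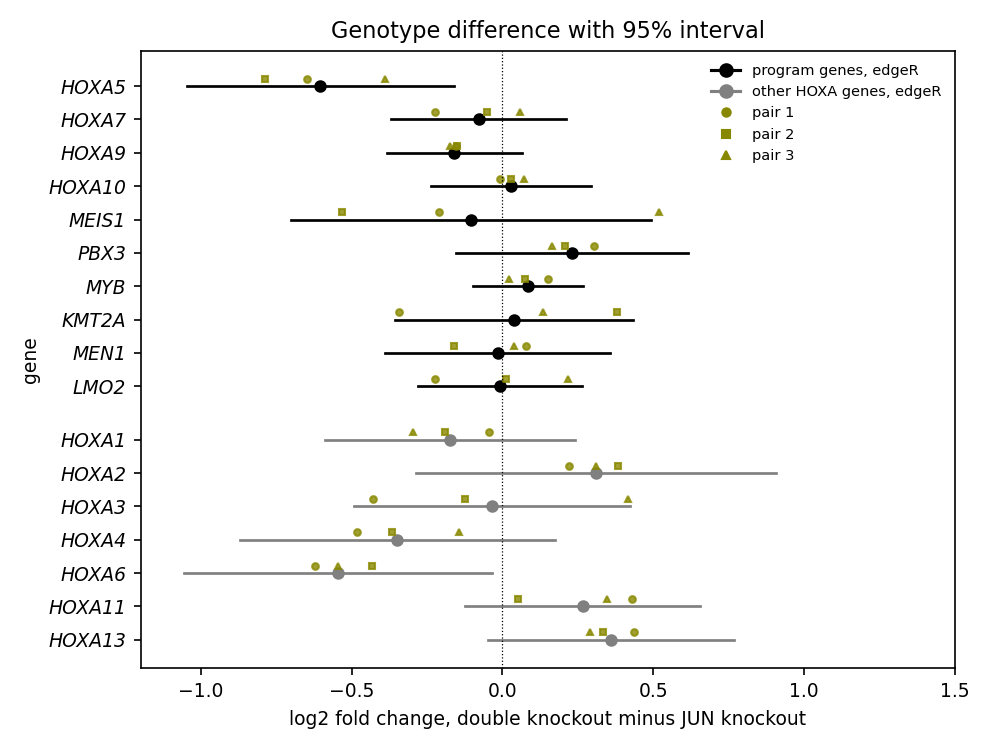
Log2 fold change of the double knockout minus the JUN knockout (horizontal axis) with its 95% interval from edgeR, for the 10 program genes in black and the other 7 HOXA genes in grey; small symbols above each line are the differences within same-numbered pairs. Among the program genes the HOXA5 interval, −1.05 to −0.16, is the sole one that does not reach 0.

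Along the HOXA cluster, all 11 genes passed the filter, and HOXA9 and HOXA10 stood above their neighbours. Together they made up 67.8% to 73.4% of the TPM of the cluster in a library, here over all transcripts, including those under 500 bases. By the same measure, the HOXA cluster in turn held 86.4% to 91.4% of the TPM of all HOX genes. In the HOXB cluster 2 of 10 genes were tested, in the HOXC cluster 4 of 9 and in the HOXD cluster 0 of 9, with 0 TPM for every HOXD gene in every library. The annotated HOXA10-HOXA9 readthrough locus (ENSG00000257184) had 0 estimated reads in all 6 libraries. Its exons are shared with HOXA9 and HOXA10, whose annotated spans overlap on 1 strand, so the split of reads among them is an estimate.

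Of the other 7 HOXA genes, 0 were called between genotypes by edgeR or DESeq2, and 1 had an unadjusted p under 0.05. That gene, HOXA6, lies next to HOXA5 and had 3.58, 2.77 and 3.00 CPM in the double knockout and 5.51, 3.74 and 4.39 CPM in the JUN knockout. Its groups did not overlap, and the log2 fold change was −0.54 (SE 0.22, adjusted p = 0.854, edgeR). HOXA4, on the other side of HOXA5, gave −0.35 (SE 0.22) with overlapping groups. At the far end of the cluster, HOXA13 gave 0.36 (SE 0.17) and HOXA11 0.27 (SE 0.17), neither passing the test. HOXA3, the most abundant of these 7 genes at 7.87 TPM, gave −0.04 (SE 0.19). HOXA4 to HOXA7 thus had negative estimates and HOXA10 to HOXA13 positive ones. HOXA7 and HOXA10 changed sign when 1 library was left out. The difference between those stretches was not tested, and HOXA4, HOXA6, HOXA11 and HOXA13 were named after their values were seen.

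**Figure D3:**
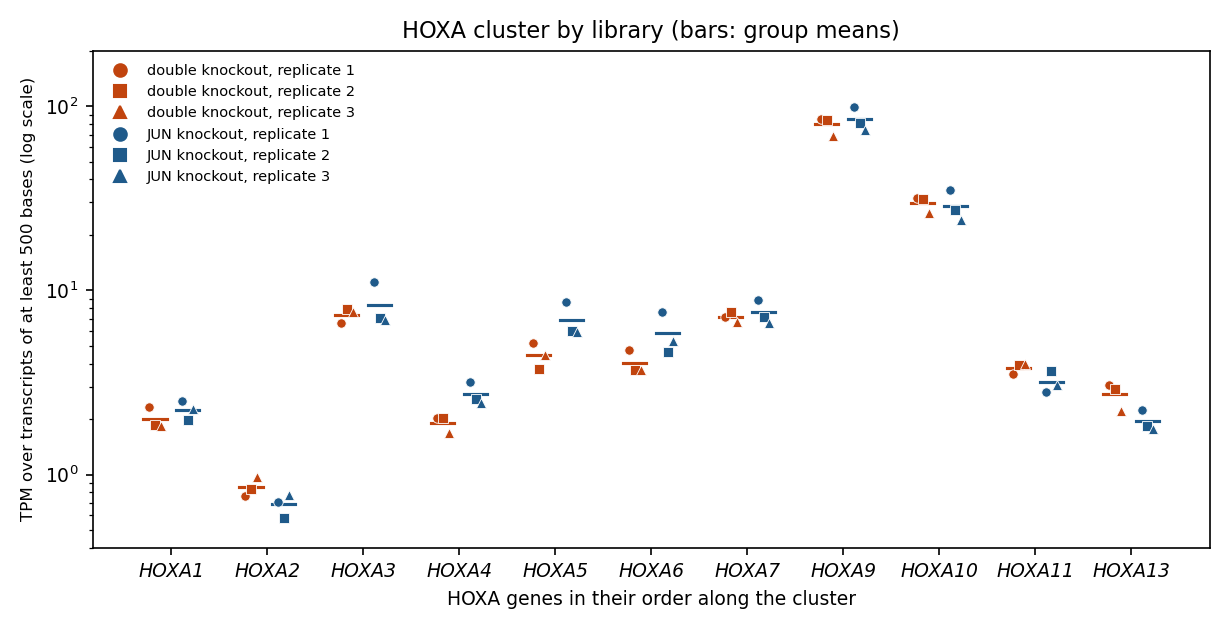
TPM over transcripts of at least 500 bases (log axis) of the 11 HOXA genes in their order along the cluster; orange symbols at the left of each gene are double knockout libraries, blue symbols at the right JUN knockout libraries, shapes are replicate numbers and bars are group means. HOXA9 at 69.1 to 98.9 TPM and HOXA10 at 24.2 to 34.9 TPM lie above the other 9 genes in every library.

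Between replicate numbers, which carry the clone code, none of the program genes passed the test. In a fit with both terms, the largest difference between replicate numbers exceeded the genotype difference in 9 of the 10 genes, beside 78.3% of all tested genes. The largest of 3 differences is here set beside a single one, and the share among the 10 is near that of all genes. HOXA5 was the exception, with 0.44 between replicate numbers 1 and 2 and −0.61 between genotypes on the log2 scale. The replicate-number term was called in 0 of the 10 genes by edgeR at an adjusted p under 0.05, beside 227 of 12954 genes (1.75%), and 2 of 10 had an unadjusted p under 0.05, beside 20.0%. DESeq2 and limma-voom also called 0 of the 10, with 6.92% and 1.28% of all tested genes called. Averaged over both genotypes, replicate 1 was the highest in 8 of the 10 genes and replicate 3 the lowest in 8 of 10. The matching shares of all tested genes were not computed. The estimate for replicate 1 minus replicate 3 was above 0 in 9 of 10 genes, beside 50.3% of all tested genes, with MEN1 the exception. Among the 9, MEIS1 was at 0.10 (SE 0.33) and MYB at 0.12 (SE 0.09). All 10 genes were measured in the same libraries, and this count was not tested.

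MEN1 came nearest to a call. Replicate numbers 1, 2 and 3 averaged 48.6, 56.7 and 66.1 CPM over both genotypes, and both libraries numbered 1 lay below, and both numbered 3 above, all the others. Replicate 1 minus replicate 3 was −0.44 on the log2 scale (SE 0.10, adjusted p = 0.0517, edgeR), and the term had an adjusted p of 0.131. PBX3 ran the other way, with 27.5, 25.5 and 20.2 CPM for numbers 1, 2 and 3. Its difference was 0.44 (SE 0.12, adjusted p = 0.0685, edgeR). HOXA10 averaged 56.0, 52.8 and 46.1 CPM, a difference of 0.28 (SE 0.10, adjusted p = 0.11, edgeR). HOXA9 averaged 125, 116 and 107 CPM, a difference of 0.22 (SE 0.09, adjusted p = 0.178, edgeR). Both libraries numbered 1 lay outside the range of the other 4 in 3 of the 10 genes (HOXA7, HOXA10 and MEN1), beside 24.3% of all tested genes. For number 3 this held in 4 of 10 (HOXA10, PBX3, MYB and MEN1), beside 30.2%. For number 2 it held in 0 of 10, beside 6.82%. These shares are near those of all genes.

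Without double knockout replicate 1, the replicate-number term was called in 2 of the 10 genes, beside 2634 of the 13224 genes tested in that fit (19.9%). The share among the 10 is that of all genes. The genes were KMT2A, at 0.62 on the log2 scale for replicate 1 minus replicate 3, and MEN1, at −0.52. The lone library numbered 1 was then assumed to vary like the others, and KMT2A was at 189 CPM in it against 149 CPM in the library left out. Sums of cell type markers also differed between the libraries numbered 1 and those numbered 3. The monocyte sum was 164, 239 and 465 CPM in double knockout replicates 1 to 3 and 124, 406 and 391 CPM in JUN knockout replicates 1 to 3. It came mostly from LYZ, while CD14 and FCGR3A were at or near 0 and 3 of 5 markers stayed under 1 CPM. The progenitor sum, nearly all FLT3, was 271, 292 and 217 CPM in double knockout replicates 1 to 3 and 286, 222 and 166 CPM in JUN knockout replicates 1 to 3. The lymphoid sum, mostly NCAM1, was 79.9, 57.0 and 24.7 CPM in double knockout replicates 1 to 3 and 66.2, 30.3 and 34.8 CPM in JUN knockout replicates 1 to 3. Both libraries numbered 1 thus lay below both numbered 3 in the monocyte sum and above them in the progenitor and lymphoid sums. The libraries numbered 2 fell on opposite sides in each of these sums. Double knockout replicate 2 lay nearer those numbered 1, and JUN knockout replicate 2 nearer those numbered 3. These sums thus did not follow replicate number throughout. The eosinophil sum, nearly all RNASE2 and RNASE3, fell from 80.9 to 62.8 CPM between double knockout replicates 1 and 2, unlike the monocyte sum. As there, both libraries numbered 1 lay below both numbered 3. They were at 80.9 and 36.1 CPM in double and JUN knockout replicate 1 and 105 and 111 CPM in replicate 3. The neutrophil sum showed no such order, at 117 and 62.4 CPM in replicate 1 and 86.9 and 73.4 CPM in replicate 3. Nor did the erythroid sum. The part of these markers in the differences between replicate numbers was not tested. In bulk RNA, fewer cells of a type and less RNA per cell cannot be told apart.

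The other genes of the pathway, in 8 lists with 113 of 114 entries in the gene table, gave 0 calls between genotypes in edgeR, in the paired fit and in DESeq2. The TPM printed for list genes other than MEIS2 and the HOXA genes are over all transcripts, unlike the levels of the program genes. Among partners of HOX proteins with a TALE homeodomain, the family of MEIS1 and PBX3, 6 of 9 were tested, with 3 estimates above and 3 below 0. MEIS2, described above, was their most abundant gene. Of 13 KMT2 complex subunits and paralogs, all tested, 8 were above and 5 below 0. PSIP1, which with menin anchors KMT2A to chromatin, was the most abundant at 136 TPM and had 390, 348 and 251 CPM in the double knockout and 405, 323 and 290 CPM in the JUN knockout. Its groups overlapped.

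Of 14 tested DOT1L and elongation factors, which KMT2A fusion proteins are known to recruit, 13 estimates were above 0 and 1 below. Among all tested genes 6572 of 12954 were above 0. The median of this list was 0.13, and in 4 of 14 genes all double knockout libraries lay above all JUN knockout libraries, beside 6.31% of all tested genes. At an unadjusted p under 0.05, edgeR listed 1 of the 14, beside 5.81% of all tested genes. These genes were measured in the same libraries, and the direction of the list was not tested. CDK9, the kinase that releases paused RNA polymerase II and the most abundant of the list at 66.1 TPM, had 91.2, 91.2 and 84.9 CPM in the double knockout. It had 73.9, 79.8 and 69.6 CPM in the JUN knockout, so the groups did not overlap. The log2 fold change was 0.26 (SE 0.08, adjusted p = 0.789, edgeR).

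Of 21 known targets of KMT2A fusions, HOXA9 and MEIS1, 14 were tested, with 8 estimates above and 6 below 0. The most abundant was LGALS1, a galactose-binding lectin, with 359, 329 and 430 CPM in the double knockout and 375, 381 and 365 CPM in the JUN knockout. Of 7 MYB relatives and coactivators, 4 were above and 3 below 0. CEBPA, a driver of granulocyte and monocyte fate and the most abundant of them at 98.5 TPM, had 305, 266 and 318 CPM in the double knockout and 229, 228 and 262 CPM in the JUN knockout. Its groups did not overlap, and the log2 fold change was 0.31 (SE 0.10, adjusted p = 0.789, edgeR). Of 12 tested partners of LMO2, 8 were above and 4 below 0, and TCF3, an E protein of the LMO2 complex, was the most abundant at 185 TPM. TCF3 had 358, 354 and 394 CPM in the double knockout and 347, 367 and 386 CPM in the JUN knockout, in overlapping groups.

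Between replicate numbers, 3 genes of these lists passed the edgeR test on the term, beside 1.75% of all tested genes. They were 2 of the 6 tested HOXB, HOXC and HOXD genes and 1 of the 7 MYB relatives and coactivators. In these lists DESeq2 called 2 of 6 and 2 of 7. It also called 4 of 14 known targets, 1 of 13 KMT2 subunits and paralogs and 1 of 12 LMO2 partners, beside 6.92% of all tested genes. HOXB9, a posterior HOX gene, had 7.84, 10.5 and 0.848 CPM in double knockout replicates 1 to 3 and 8.2, 5.65 and 0.539 CPM in JUN knockout replicates 1 to 3. Both libraries numbered 3 were low, and replicate 1 minus replicate 3 was 3.56 on the log2 scale (SE 0.31). The term had an adjusted p of 0.0068 in edgeR. HOXC10, of another HOX cluster, had 0.885, 4.09 and 6.75 CPM in double knockout replicates 1 to 3 and 0.808, 3.06 and 7.01 CPM in JUN knockout replicates 1 to 3. The order was the same in both genotypes, with a difference of −3.02 (SE 0.27, adjusted p of the term 0.00787, edgeR). CEBPB, a myeloid factor that works with MYB, had 62.2, 49.1 and 28.1 CPM in double knockout replicates 1 to 3 and 69.8, 42.5 and 22.7 CPM in JUN knockout replicates 1 to 3. Its difference was 1.39 (SE 0.13, adjusted p of the term 0.00998, edgeR). These calls held under every alternative run, with an adjusted p of at most 0.0402. HOXB7, the most abundant HOX gene outside the HOXA cluster at 6.61 TPM, was not called, with a difference of 0.83 (SE 0.20, adjusted p = 0.0517, edgeR).

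For replicate 1 minus replicate 3 alone, edgeR called 772 of 12954 genes (5.96%) and 0 of the 10 program genes. From the lists it also called PSIP1 at 0.56, BCL2 at 0.65, RUNX2 at 0.83 and LYL1 at 0.50 above 0, and KAT2A at −0.52. BCL2, RUNX2, LYL1 and KAT2A were named after their values were seen.

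**Figure D4:**
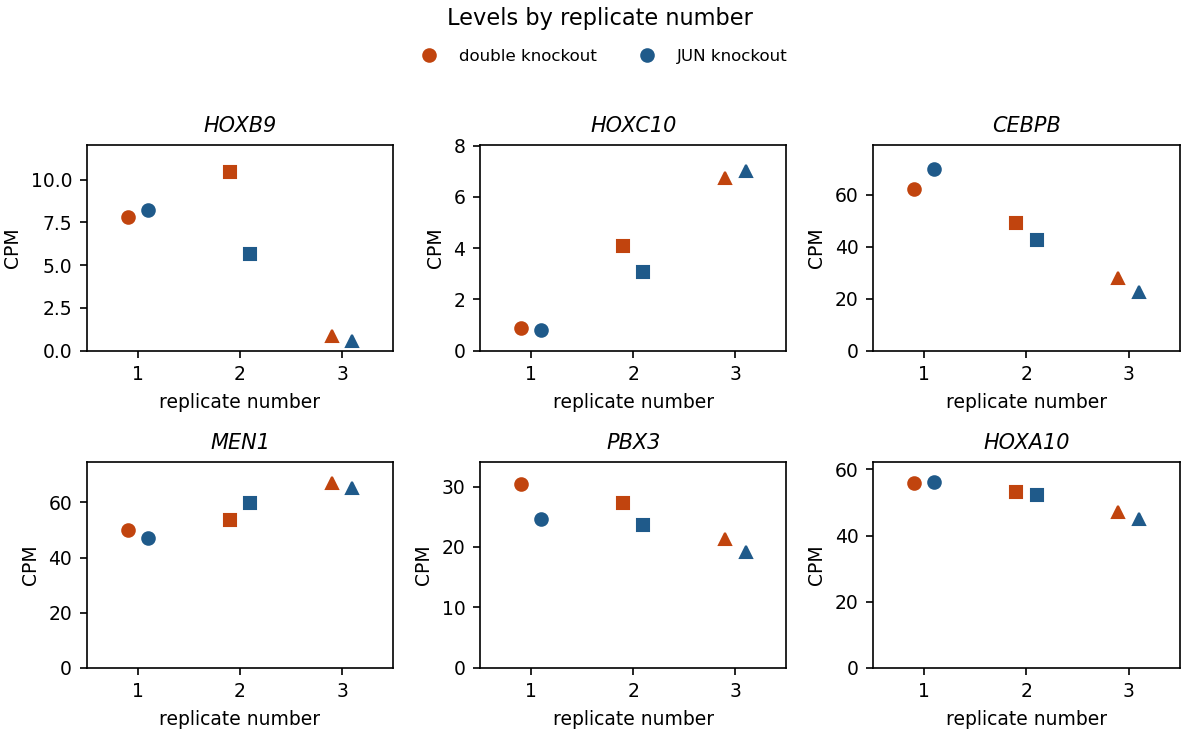
CPM by replicate number for 3 list genes called on the replicate-number term (top row) and 3 program genes that were not called (bottom row); orange symbols are double knockout and blue symbols JUN knockout libraries, and each vertical axis starts at 0. HOXB9 is at 0.848 and 0.539 CPM in both libraries numbered 3, and HOXC10 at 0.885 and 0.808 CPM in both numbered 1.

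The transcripts behind the gene values were estimates, and for several genes short ones carried much of the TPM on few reads. HOXA9 was spread over HOXA9-201, a coding transcript of 2064 bases with 34.1% to 41.2% of the gene TPM, the non-coding HOXA9-206 with 30.4% to 35.4%, and HOXA9-202 with 24.8% to 32.1%. HOXA9-202 is annotated as coding and is shorter, at 797 bases. HOXA10-201 had 30.1% to 44.9%, HOXA10-205 22.6% to 41.8% and HOXA10-206 10.8% to 28.0%. HOXA7-201 carried 60.8% to 94.8%, and HOXA7-203 at most 30.8%, with 0 in double knockout replicates 1 and 3. Of the HOXA5 TPM, 55.0% to 65.4% was on HOXA5-202, a transcript of 329 bases with 12.5 to 27.1 estimated reads, while the coding HOXA5-201 held 156 to 362 reads. Transcripts under 500 bases held 58.9% of the HOXA5 TPM but 7.42% of its reads. Such transcripts were left out of the TPM levels of the program genes, MEIS2 and the HOXA genes above, a choice made after seeing the data. They were kept in the percentiles, in the shares of the HOX clusters and in the TPM of the other list genes.

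KMT2A-213, the full coding transcript of 16628 bases, had 43.4% to 69.7% of the KMT2A TPM, and KMT2A-205, a retained intron, 15.1% to 38.2%. KMT2A-203, of 237 bases, reached 23.7% on at most 1.41 reads. MYB-205 had 29.02% to 50.0% and MYB-209 15.1% to 27.1%, both coding. PBX3-201, coding, had 40.9% to 66.9%, PBX3-202 13.6% to 27.2% and PBX3-210 12.6% to 28.8%. MEN1-201, coding, had 52.8% to 64.0%, and MEN1-216, of 314 bases, reached 21.6% on at most 10.4 reads. LMO2-202 had 26.4% to 43.2%, LMO2-201 19.3% to 27.9% and LMO2-204, a retained intron, 15.9% to 26.3%. MEIS1 reads were scattered over 10 of its 17 transcripts. MEIS1-205, of 363 bases, had 59.3% in double knockout replicate 1 and 69.5% in JUN knockout replicate 1 and 0 in the other 4 libraries, on at most 5.58 reads. MEIS1-201, a coding transcript with 14.8 to 48.8 reads, had 7.10% to 26.9%. The other MEIS1 transcripts that reached 20% in any library were MEIS1-203, MEIS1-208, MEIS1-209, MEIS1-210, MEIS1-212 and MEIS1-215, with at most 23.0 reads each.

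The genes whose profile over the 6 libraries was nearest to that of HOXA9 were found by the root-mean-square difference of centred log2 CPM. Over 11601 tested genes with a mean of at least 1 CPM, the median of this measure was 0.203. The nearest were NFYC at 0.0218, ATP23 at 0.0223, HNRNPUL1 at 0.0234, TMTC3 at 0.0253 and RNF14 at 0.0257. HOXA9 itself spanned 0.38 on the log2 scale over the 6 libraries, so these are genes of like small variation. NFYC, a subunit of the CCAAT-binding factor NF-Y, had 50.0, 46.5 and 41.2 CPM in the double knockout and 53.8, 50.6 and 48.1 CPM in the JUN knockout. None of the 5 nearest genes was a program gene.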

How the data were processed

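PolyA RNA of 6 EoL-1 libraries was sequenced after a stranded mRNA preparation, per the labels' protocols. Per the submitters' processing notes, FastQC 0.11.9 and Salmon 1.6.0 were used with the build hg38. The deposited files give an estimated count and a TPM value for each of 177456 transcripts per library, per the file headers. Salmon shares out reads that match several transcripts, so isoform values and the split between overlapping genes are estimates.

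Identifiers were matched to GENCODE release 29 (GRCh38). The release behind the files is not given in the sources used here. The join matched 167027 transcripts (94.1%) in 35052 genes, and 3.58% to 3.71% of the reads of a library were left out. The estimated counts of a gene's transcripts were added up and rounded. edgeR 4.0.16 (R 4.3.3; quasi-likelihood, filterByExpr, TMM, robust, two-sided) tested 12954 genes with group as its term. CPM were computed after TMM scaling. A fit with group and replicate number gave the replicate-number term and its contrasts. Alternatives were the replicate block, RLE scaling, other filters, a length offset, DESeq2 1.42.0, limma-voom (limma 3.58.1), leaving out each library and TPM in place of CPM. No pair of libraries of the same genotype agreed within sampling noise (chi-square per gene of 11.7 to 67.3). The procedure was tested on simulated data.

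Pairing was taken from the codes in the names of the deposited files, not from the labels. The correlation of deviations from the group means was 0.301 for number 1, 0.0859 for number 2 and 0.359 for number 3. Between unlike numbers it ran from −0.359 to 0.0694. The highest of these, double knockout replicate 2 with JUN knockout replicate 1, was close to the value for number 2. For number 2 the pairing thus rests on the file names.

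The 10 genes and the 8 lists were chosen with earlier results of these data known. Beyond them, the rule named list genes past a test and the most abundant gene of each list. It also named the 5 genes nearest to HOXA9, and transcripts that led a gene or reached 20% of its TPM. Other names are marked. Promoter windows are RefSeq's, of GRCh38.p14.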

Additional observations from a re-analysis of the deposited data

How the results depend on the processing

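Between genotypes, 0 of the 10 program genes were called under every alternative run. The number of all genes called was 0 with the replicate block, 71 with DESeq2, 4 with limma-voom and 1 with no filter on low counts. The pairing changed no call. On the replicate-number term, 227 genes were called, against 896 with DESeq2, 686 with no filter and 61 with the length offset. Leaving out 1 library gave a low of 141 when it was double knockout replicate 3 and a high of 2634 when it was double knockout replicate 1. It gave 644 without JUN knockout replicate 1 and 408 without JUN knockout replicate 2. The program genes called ranged from 0 to 2 of 10, the 2 being without double knockout replicate 1. The causes were not tested.

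Some fold changes, none of them called, turned sign. With the length offset, MEIS1 was at 0.20, PBX3 at −0.051 and KMT2A at −0.19. With TPM in place of CPM, the log2 ratios of means were 0.20, −0.051 and −0.20 for the same genes, while TPM over transcripts of at least 500 bases, chosen after seeing the data, gave −0.21, 0.063 and 0.020. LMO2 was at 0.0019 with limma-voom and 0.0018 with the replicate block. Leaving out 1 library gave −0.15 to 0.025 for HOXA7, −0.056 to 0.10 for HOXA10, −0.28 to 0.070 for MEIS1 and −0.061 to 0.24 for KMT2A. It gave −0.15 to 0.085 for MEN1, −0.11 to 0.094 for LMO2 and −0.22 to 0.10 for HOXA3. Replicate 2 minus 3 of MEIS1 ranged from −0.21 to 0.68. HOXA5 stayed between −0.71 and −0.46. The 48 to 87 reads of MEIS1 and the 3 libraries per group limit what could be seen.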
